A study of Homo sapiens with 3 samples.

Results

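The genes described here are named as snoRNA host genes, genes whose introns or exons hold small nucleolar RNAs (snoRNAs). They were taken by name alone, as every gene called SNHG (small nucleolar RNA host gene) followed by a number, together with GAS5, EPB41L4A-AS1 and ZFAS1. This gave 28 of the 58735 genes counted. For SNHG27 neither the annotation nor RefSeq places a snoRNA inside, and for the genes named SNHG28 RefSeq places none. Counts were above 0 for 27 of the 28, and 22 reached an average of 1 CPM or more over the libraries (CPM is the count scaled to a common library size), the level required for a ratio to be counted. The 13984 genes that reached it are called the expressed genes below.

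RNA was sequenced from A549, an established human lung adenocarcinoma cell line of epithelial origin, grown in F12K medium with 10% FBS at 37 °C and 5% CO2. The study examined DDX24, a DEAD-box RNA helicase, in splicing and autophagy of lung cancer cells, and sequenced RNA after depleting it. Control-sh is the control line, and DDX24-sh1 and DDX24-sh2 carry 1 of 2 short hairpin RNAs (shRNAs) against DDX24. They are called the control, sh1 and sh2 from here on. Per the study's methods, lentivirus from pLKO.1 plasmids was used to make stable lines, which were selected in puromycin, so the control cells went through the same selection. The methods name an empty vector as the control and another place in the study a control shRNA, and which of these the control library holds is not known. Each condition has 1 library, made from 4 ug of total RNA. No difference below therefore has a replicate check or a statistical test, and differences between lines cannot be told apart from differences between cultures. In RNA of bulk cells, fewer cells with a transcript and less of it per cell cannot be told apart either.

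Most human snoRNAs are processed from the introns of a longer host transcript. Box C/D snoRNAs guide 2′-O-methylation and box H/ACA snoRNAs guide pseudouridylation, mainly of ribosomal RNA, while the related scaRNAs act on spliceosomal RNA in Cajal bodies. In many noncoding hosts the spliced exons are turned over by nonsense-mediated decay, the pathway that removes transcripts with early stop codons. Several hosts begin, like ribosomal protein mRNAs, with a C followed by a run of pyrimidines (the 5′ terminal oligopyrimidine, or TOP, start), which ties their translation and stability to growth signals.

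The starts of annotated transcripts are shown for 9 hosts, all picked among those with such a pyrimidine start. Of these, 7 differed between the shRNA libraries and 2, SNHG5 and SNHG19, hardly did. Hosts without one, such as SNHG7, SNHG17 and SNHG20, are not shown. The starts come from GENCODE 29 on GRCh38, and the capitals mark the opening pyrimidine run.
GAS5, chr1:173867960-173867989, minus strand: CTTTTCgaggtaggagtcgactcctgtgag
SNHG1, chr11:62855450-62855479, minus strand: CTCCTgtctgcaggatttacgcgcacgttg
SNHG3, chr1:28506043-28506072, plus strand: CCTTTTTggagacagattcgcagtggtcgc
SNHG4, chr5:139274102-139274131, plus strand: CCTTTCCCCTCCggcctctgccggtgctgc
SNHG8, chr4:118278758-118278787, plus strand: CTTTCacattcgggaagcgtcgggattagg
SNHG12, chr1:28581844-28581873, minus strand: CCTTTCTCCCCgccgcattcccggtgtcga
ZFAS1, chr20:49278642-49278671, plus strand: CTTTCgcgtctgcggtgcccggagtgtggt
SNHG5, chr6:85678704-85678733, minus strand: CTTTTacgtcggccttcgcgagcgtctggg
SNHG19, chr16:2155329-2155358, minus strand: CTTTTCggggtcgagtccgagggggaagag

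GAS5, SNHG16 and SNHG19 open with the same run, CTTTTC. A start of C followed by at least 4 pyrimidines, read on the transcript's own strand, was annotated for at least 1 transcript of 12 of the 22 hosts with at least 1 CPM (54.5%), against 17.0% of the expressed genes with a reference transcript. Hosts have many annotated transcripts, which raises the chance of such a start, and only some of a gene's transcripts carry it. The SNHG1 start shown belongs to 1 of its 25 annotated transcripts and lies inside the gene, downstream of its snoRNA SNORD25. By transcript, 33 of 253 host transcripts (13.0%) and 2.41% of all annotated transcripts began this way. A match describes letters at an annotated start and does not show where transcription began in these cells.

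The snoRNAs themselves are shown for SNHG7, the host furthest below the control in sh2, for SNHG1, the host furthest below it in sh1, and for SNHG3, whose direction differed between the libraries. The reference is again GENCODE 29 on GRCh38. In the box C/D snoRNAs the capitals mark the box C core TGATGA and the last CTGA (box D), and in the box H/ACA snoRNAs they mark the last ACA. The SNHG1 snoRNAs shown, SNORD25 and SNORD27, both hold TGATGA, as does SNORD30, which is not shown. SNORD22, SNORD26 and SNORD28 in the same host do not hold TGATGA and are not shown either.
SNORD25, in SNHG1, chr11:62855564-62855632, minus strand: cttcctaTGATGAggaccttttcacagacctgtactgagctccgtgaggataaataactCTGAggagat
SNORD27, in SNHG1, chr11:62855012-62855083, minus strand: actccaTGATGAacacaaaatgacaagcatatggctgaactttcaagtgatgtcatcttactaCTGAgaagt
SNORA17A, in SNHG7, chr9:136726747-136726879, minus strand: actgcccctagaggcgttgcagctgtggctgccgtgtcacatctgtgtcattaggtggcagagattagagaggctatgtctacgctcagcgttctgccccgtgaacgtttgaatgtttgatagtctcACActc
SNORA73B, in SNHG3, chr1:28508559-28508762, plus strand: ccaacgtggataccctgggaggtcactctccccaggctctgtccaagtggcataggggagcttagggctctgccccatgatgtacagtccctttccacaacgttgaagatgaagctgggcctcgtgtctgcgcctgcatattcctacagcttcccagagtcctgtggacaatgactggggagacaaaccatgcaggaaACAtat

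Of 288 annotated transcripts of SNORD genes, 59.4% hold TGATGA in the first 15 bases and CTGA in the last 11, and 89.9% of 149 transcripts of SNORA genes hold ACA in the last 7.

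The counts sum to between 17218884 and 18337471 per library. DDX24 had 2010 counts in the control, 637 in sh1 and 765 in sh2, so the targeted gene was lower in both shRNA libraries (log2 ratios −1.75 and −1.47). Of the epithelial markers, the keratins KRT8 and KRT18 had at least 22548 counts in every library and EPCAM 29 to 32. KRT19 was higher in the shRNA libraries, with 1001, 2251 and 2728 counts in the control, sh1 and sh2, and CDH1 lower, with 538, 358 and 261. Of the markers of other cell types, PTPRC (leukocytes) had 0 counts, PECAM1 (endothelium) 6 to 12, and of the fibroblast collagens COL1A2 had at most 3 and COL1A1 139 to 174. Mitochondrial genes took 4.36%, 5.13% and 7.04% of the counts of the control, sh1 and sh2, and the part of these markers and shares in the host gene values was not tested. The deposited FPKM labels of the shRNA libraries are exchanged relative to the counts, so sh1 and sh2 denote the libraries by the labels of their counts. Which labels are right is not known, and with the other labels every sh1 and sh2 value below would change places.

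GAS5, the marker of the group and a host best known for rising in growth-arrested cells, was present in all 3 libraries. Together the 28 hosts held 969 CPM in the control, 744 in sh1 and 885 in sh2. Per length of annotated exon, SNHG5 was the most abundant host in every library, at 70.1 RPKM (CPM per kilobase of exon) in the control, 59.2 in sh1 and 60.1 in sh2. SNHG19, a short single-transcript gene carrying SNORD60, was second in every library at 47.5 to 49.7 RPKM. SNHG8, host of SNORA24, was next in the control with 40.0 RPKM, but had 21.7 in sh1 and 34.8 in sh2. SNHG6, host of SNORD87, lay below SNHG8 in the control (34.9 RPKM) and above it in sh1 (36.9) and sh2 (39.6). SNHG14, the long transcript of the imprinted Prader-Willi region, had 1582 counts in the control but only 2.14 RPKM, because its annotated exons span 43324 bases. These are levels, and per-length values depend on which annotated exons the cells use.

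The first question is how each shRNA library differed from the control. In sh1 most hosts were lower: the counting interval of the log2 ratio lay below 0 for 12 of 22 hosts (54.5%), against 29.5% of expressed genes, and above 0 for 2, against 23.6%. In sh2 the hosts divided evenly, with 9 below 0 (background 30.8%) and 9 above 0 (background 23.6%). The median log2 ratio of the 22 hosts was −0.27 in sh1 and −0.08 in sh2, against −0.02 and −0.03 over all expressed genes. The sh1 host median moved between −0.0723 with no limit on CPM and −0.43 with a limit of 10 CPM, and the sh2 median, close to 0, between 0.0462 and −0.16. Among 885 other noncoding genes averaging 1 CPM or more the medians were 0.03 and 0.04. All ratios are log2 of CPM scaled by edgeR's TMM method with a prior count of 2, and each interval is an exact 95% interval of counting error only. The interval narrows as counts rise, so abundant genes are called at smaller ratios. The background shares are not matched for counts.

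At a 2-fold limit few hosts stood out. In sh1 SNHG1, SNHG7 and SNHG20 were at least 2-fold lower (background 2.27%) and 0 were at least 2-fold higher (background 2.32%). In sh2 SNHG7 was at least 2-fold lower (background 3.07%) and SNHG21 at least 2-fold higher (background 2.89%). SNHG7 was thus the only host past 2-fold in both libraries, in a background of 1.38% lower and 1.19% higher. Both ratios use the same control library, so an unusual count there would move both in 1 direction.

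SNHG7 (ENSG00000233016, chromosome 9, minus strand, 136721366 to 136728184) carries the box H/ACA snoRNAs SNORA17A and SNORA17B. It had 1761 counts in the control, 832 in sh1 and 886 in sh2. Both shRNA libraries were low, and they did not differ from each other beyond counting error. The log2 ratio was −1.18 in sh1 (interval −1.30 to −1.06) and −1.07 in sh2 (−1.19 to −0.95). SNHG7 is annotated as antisense, and 25.2% of its exon bases lie opposite exons of FAM69B, so reads there could belong to either gene if strand was not used in counting. FAM69B itself had 258, 352 and 267 counts in the control, sh1 and sh2, with log2 ratios of 0.35 and −0.03, so it was not as low as SNHG7 in either shRNA library.

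SNHG17, which carries the box H/ACA snoRNAs SNORA71A to SNORA71D, followed the same pattern at a smaller size. Its counts were 1259 in the control, 831 in sh1 and 885 in sh2. Both shRNA libraries were low and close together, with log2 ratios of −0.70 (interval −0.83 to −0.57) and −0.59 (−0.71 to −0.46). No gene is annotated on the strand opposite SNHG17. Its neighbour on chromosome 20, SNHG11, transcribed from the other strand and host of SNORA60 and SNORA71E, had 223 counts in the control, 177 in sh1 and 134 in sh2. The control was again the highest library, but here sh2 was the lowest, with log2 ratios of −0.43 (interval −0.73 to −0.14) and −0.81 (−1.14 to −0.50).

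The most abundant host, SNHG5, in which RefSeq places the box C/D snoRNAs SNORD50A and SNORD50B, was only slightly lower. It had 3358 counts in the control, 3037 in sh1 and 3042 in sh2, and its ratios of −0.24 (interval −0.32 to −0.17) and −0.22 (−0.29 to −0.15) did not differ beyond counting error. EPB41L4A-AS1, host of SNORA13, had 365 counts in the control, 319 in sh1 and 291 in sh2. The control was the highest library, with ratios of −0.29 (interval −0.52 to −0.07) and −0.41 (−0.63 to −0.18). Of its exon bases, 49.6% lie opposite exons of EPB41L4A, which had only 59 to 83 counts.

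**Figure D1:**
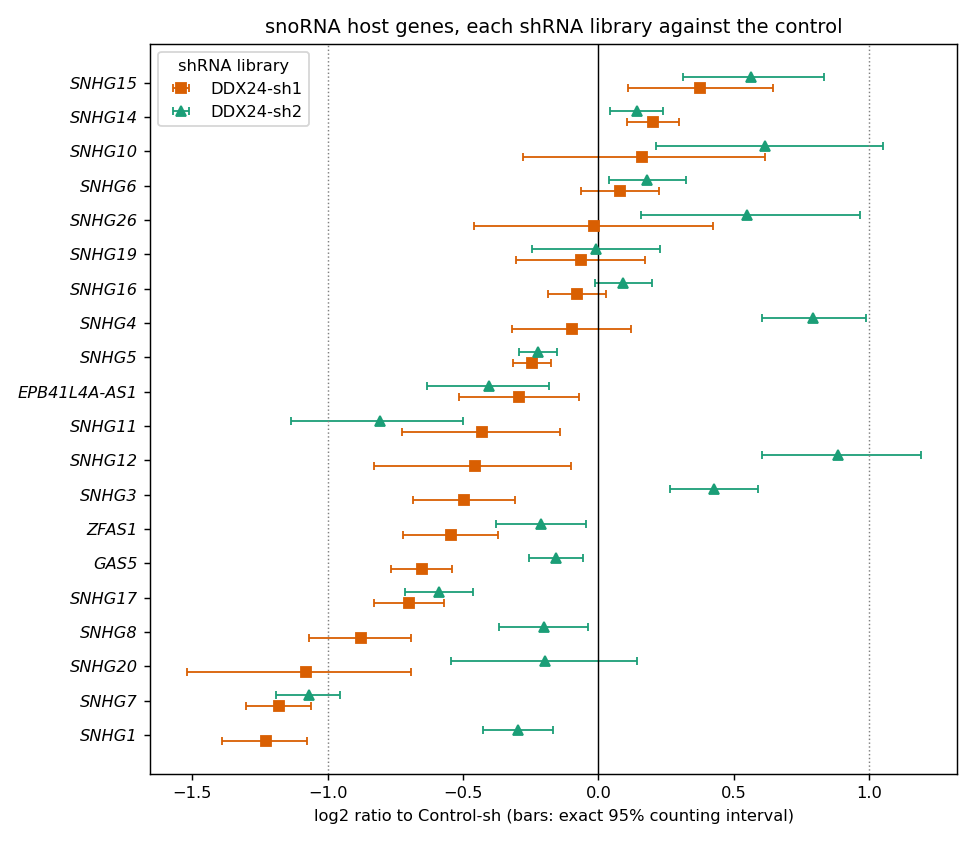
Log2 ratios to Control-sh of the 20 host genes averaging 5 CPM or more, ordered by the DDX24-sh1 value. Squares are DDX24-sh1, triangles DDX24-sh2, bars exact 95% counting intervals, and dotted lines the 2-fold limits. SNHG7 lies beyond −1 in both libraries, while the triangles of SNHG12 and SNHG3 lie on the other side of 0 from their squares.

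A further group of hosts was low mainly in sh1. SNHG1 (ENSG00000255717, chromosome 11, minus strand, 62851988 to 62855914), the host of the box C/D snoRNAs SNORD25 to SNORD28 among others, had 1063 counts in the control, 485 in sh1 and 915 in sh2. sh1 stood apart from the other libraries, with a log2 ratio of −1.23 (interval −1.39 to −1.08) beside −0.30 (−0.43 to −0.17) in sh2. GAS5 (ENSG00000234741, chromosome 1, minus strand, 173863900 to 173868882) had 1632 counts in the control, 1112 in sh1 and 1548 in sh2. Its ratio was −0.65 (interval −0.76 to −0.54) in sh1 and −0.16 (−0.26 to −0.06) in sh2.

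SNHG8 showed the same order, with 630 counts in the control, 367 in sh1 and 579 in sh2. Its ratios were −0.88 (interval −1.07 to −0.69) and −0.20 (−0.37 to −0.04), so sh1 was low and sh2 close to the control. ZFAS1, which lies antisense to ZNFX1 and carries the SNORD12 snoRNAs, had 630, 462 and 575 counts in the control, sh1 and sh2. Its ratios were −0.55 (interval −0.72 to −0.37) and −0.21 (−0.38 to −0.05). ZNFX1, which shares 11.1% of the ZFAS1 exon bases on the opposite strand, was higher in the shRNA libraries, with 1383, 1747 and 1870 counts.

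SNHG20, host of the scaRNA SCARNA16, had 150 counts in the control, 75 in sh1 and 138 in sh2. Its sh1 ratio was −1.08 (interval −1.52 to −0.69), and the sh2 interval, −0.55 to 0.14, included 0. SNHG20 shares 7.56% of its exon bases with SEC14L1 on the same strand, and SEC14L1 had 2726, 3729 and 2562 counts. Each of SNHG1, GAS5, SNHG8, ZFAS1 and SNHG20 was thus lowest in sh1.

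Counted together, the interval lay below 0 in both comparisons for 9 hosts (background 20.6%): SNHG1, SNHG5, SNHG7, SNHG8, SNHG11, SNHG17, GAS5, ZFAS1 and EPB41L4A-AS1. Among the 11 hosts with no gene annotated opposite them the number was 5. The control library is common to both comparisons, so these are not independent counts.

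Only SNHG14 and SNHG15 had intervals above 0 in both libraries (background 14.0%). SNHG15, host of SNORA9, had 202 counts in the control, 281 in sh1 and 317 in sh2. The control was the lowest library, with ratios of 0.37 (interval 0.11 to 0.64) and 0.56 (0.31 to 0.83). SNHG14 had 1582, 1950 and 1846 counts and ratios of 0.20 (interval 0.11 to 0.30) and 0.14 (0.04 to 0.24). Its exons overlap those of UBE3A, the gene it runs antisense to, by only 198 bases, and UBE3A had 1299, 1133 and 1240 counts.

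Another set was higher in sh2 while sh1 stayed within counting error of the control. SNHG4, a host of the SNORA74 snoRNAs, had 345 counts in the control, 345 in sh1 and 633 in sh2. Its sh2 ratio was 0.79 (interval 0.60 to 0.99), and that of sh1 was −0.10 (−0.32 to 0.12). SNHG4 shares 14.0% of its exon bases with an entry named MATR3 on the same strand, which had 1, 0 and 4 counts. A further 2.64% lie opposite exons of SIL1, which had 529, 746 and 617 counts. How reads were divided among these genes is not known. SNHG26, host of SNORD93, had 86, 91 and 134 counts, and its sh2 ratio was 0.55 (interval 0.16 to 0.97). SNHG10, host of SCARNA13, had 79, 95 and 129 counts and a sh2 ratio of 0.61 (interval 0.21 to 1.05). In these hosts sh2 was the highest library, although the last has 20.1% of its exon bases opposite GLRX5, which had 1017, 1274 and 1189 counts. SNHG6 had 743, 841 and 891 counts, with an interval above 0 in sh2 only (ratio 0.18, interval 0.04 to 0.32). Whether sh2 differed from sh1 is a separate comparison, given below.

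SNHG16 and SNHG19 stayed within counting error of the control in both libraries. SNHG16, host of the SNORD1 snoRNAs, had 1427 counts in the control, 1447 in sh1 and 1609 in sh2, with intervals of −0.19 to 0.03 and −0.01 to 0.20. SNHG19 had 290, 297 and 305 counts, with intervals of −0.30 to 0.17 and −0.24 to 0.23. At these counts a difference the size of the SNHG5 ratio was not detectable for SNHG19.

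SNHG3 and SNHG12 lay on opposite sides of the control in the shRNA libraries. SNHG3 (ENSG00000242125, chromosome 1, plus strand, 28505980 to 28510892), the host of SNORA73A and SNORA73B, had 536 counts in the control, 407 in sh1 and 762 in sh2. The control lay between the shRNA libraries, with ratios of −0.49 (interval −0.69 to −0.31) and 0.43 (0.27 to 0.59). SNHG12 (ENSG00000197989, same chromosome, minus strand, 28578538 to 28583132) had 148 counts in the control, 115 in sh1 and 291 in sh2. Its ratios were −0.46 (interval −0.83 to −0.10) and 0.89 (0.60 to 1.19). SNHG3 shares 5.92% of its exon bases with RCC1 on the same strand, and RCC1 had 1339, 1299 and 1404 counts.

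The second question is how the shRNA libraries differed from each other, a comparison that does not use the control. It does use the same sh1 and sh2 libraries as the first question. Low host counts in sh1 would move both comparisons, so their counts of hosts are not independent. The interval of sh2 against sh1 lay above 0 for 12 of 22 hosts (54.5%), against 21.0% of expressed genes, and below 0 for 1, SNHG11, against 23.8%. The median log2 ratio of the 22 hosts was 0.26, and 18 lay above 0, while the median over all expressed genes was −0.01. Among the 11 hosts with no gene opposite them, 5 had an interval above 0 and the median was 0.19. With 1 library of each shRNA, this compares the cultures sequenced and not the shRNAs in general.

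SNHG12 differed most between the shRNA libraries, by 1.34 in log2 units (interval 1.04 to 1.68), and was the only host at least 2-fold higher in sh2 (background 1.3%). No host was 2-fold lower there, 0 of 22 in a background of 1.01%. Among hosts averaging 5 CPM or more, SNHG1 followed with 0.93 (interval 0.77 to 1.10), SNHG3 with 0.92 (0.75 to 1.10), SNHG4 with 0.89 (0.70 to 1.09) and SNHG20 with 0.88 (0.48 to 1.32). The intervals of these 4 overlap, so their order cannot be read at this depth. SNHG8 differed by 0.67 (interval 0.49 to 0.87), SNHG26 by 0.57 (0.18 to 0.98), GAS5 by 0.50 (0.38 to 0.61), SNHG10 by 0.45 (0.07 to 0.86), ZFAS1 by 0.33 (0.16 to 0.51) and SNHG16 by 0.17 (0.07 to 0.28). Of the 12 hosts with an interval above 0, SNHG10, SNHG20, SNHG21 and SNHG26 have no annotated pyrimidine start, and the others have one. SNHG7 and SNHG17, which also lack one, had intervals of −0.03 to 0.25 that include 0, and SNHG5, which has one, an interval of −0.05 to 0.09.

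The groups of hosts that share a feature overlapped widely. The 12 hosts with an annotated pyrimidine start had a median log2 ratio of −0.44 in sh1, −0.08 in sh2 and 0.41 between the shRNA libraries. The 10 hosts without one had 0.07, −0.0042 and 0.15, and include SNHG7 and SNHG17. In sh1, 5 of these 10 lay above 0 and 5 below. Their sh1 median rests partly on SNHG9 and SNHG21, which averaged under 5 CPM and had sh1 ratios of 0.19 and 0.35. The hosts with a start include none with so few counts, so the medians are not a like comparison. Among the 12, SNHG1 has such a start in only 1 of 25 annotated transcripts. Over the 2377 expressed genes with such a start the medians were −0.03, −0.04 and −0.02. By kind of snoRNA, the 8 hosts of box C/D snoRNAs alone had medians of −0.07 in sh1 and 0.04 in sh2. The 12 hosts of box H/ACA snoRNAs or scaRNAs alone had −0.36 and −0.17, and again include SNHG9 and SNHG21. Each kind holds hosts on both sides of the control, SNHG1 and SNHG14 in the first and SNHG7 and SNHG15 in the second. GAS5 and SNHG12, in which RefSeq places both kinds, had medians of −0.55 in sh1 and 0.36 in sh2.

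The remaining hosts had few counts. SNHG21, host of SCARNA15, had 12 counts in the control, 17 in sh1 and 33 in sh2, and shares 72.9% of its exon bases with AC105339.2 on the same strand. Its sh2 ratio of 1.25 had a wide interval, 0.39 to 2.47. SNHG9, host of SNORA78, had 17, 21 and 16 counts. Of the 6 hosts below 1 CPM, SNHG25 had 4, 5 and 10 counts and 1 of the 2 genes named SNHG28 had 1, 2 and 12. SNHG18, SNHG22 and SNHG27 had at most 1 count in any library, and the other gene named SNHG28, which lies wholly within exons of the first, had 0.

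The snoRNAs were almost absent from these counts. The annotation places 136 snoRNA or scaRNA genes inside the hosts on the same strand, and 107 of them had 0 counts in all 3 libraries. Their counts sum to 77 in the control, 76 in sh1 and 127 in sh2. The 7 inside SNHG1 and the 4 inside SNHG7, among them SNORD25, SNORD27 and SNORA17A, had 0 in every library, so the levels of these snoRNAs could not be compared. RefSeq lists 2 snoRNAs in SNHG7, and the 4 entries overlap in pairs. Some other hosts hold such doubled entries too, so 136 and 107 count entries and not distinct snoRNAs. Whether the overlap lowered their counts is not known. Only SNORA73B in SNHG3, with 10, 12 and 22 counts, and SNORD104 in SNHG25, with 15, 18 and 26, reached 10 counts. Across all 993 snoRNA genes of the table the share of counts was 0.00182% in the control, 0.00210% in sh1 and 0.00324% in sh2. RefSeq places 11 snoRNAs in GAS5, of which 0 have an entry of that name here. Their levels could not be compared either, and whether their reads were counted on GAS5 is not known, so the GAS5 counts may or may not include them.

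Genes that act on the hosts or their snoRNAs, and hosts outside the naming rule, were described through 6 lists. Over all expressed genes the interval lay above 0 in both libraries for 14.0% and below 0 in both for 20.6%, the shares against which the counts of each list are to be read. These shares include many genes with fewer counts than the listed ones, so a higher share in a list may reflect narrower intervals. The proteins of the mature snoRNA particle had medians over 8 genes of −0.08 in sh1 and 0.03 in sh2. The interval was above 0 in both for 1 of 8 (background 14.0%), NOP56, a core box C/D protein that is itself a host, with ratios of 0.10 (interval 0.03 to 0.17) and 0.52 (0.46 to 0.59). It was below 0 in both for 1 of 8 (background 20.6%), FBL, the methyltransferase of the box C/D particle, with −0.20 (interval −0.26 to −0.14) and −0.08 (−0.14 to −0.03). The box H/ACA proteins GAR1 and NHP2 each had an interval that included 0 in at least 1 library.

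The 12 factors that assemble the particle had medians of −0.09 and 0.06, with 1 of 12 above 0 in both (background 14.0%) and 0 below (background 20.6%). The first was the chaperone HSP90AB1, with ratios of 0.09 (interval 0.06 to 0.12) and 0.33 (0.31 to 0.36). The ratios of NAF1, an H/ACA assembly factor, were −0.18 and −0.16, those of SHQ1, another, 0.03 and 0.05, and those of ZNHIT3, a box C/D assembly factor, −0.0018 and −0.08, all with intervals that included 0. Among 20 nonsense-mediated decay factors the medians were −0.20 and −0.16. Of these, 10 of 20 were below 0 in both libraries (background 20.6%) and 1 of 20 above (background 14.0%), SMG8, with ratios of 0.42 and 0.20. SMG1, the kinase that phosphorylates UPF1, had 4237 counts in the control, 3182 in sh1 and 3295 in sh2, with ratios of −0.51 (interval −0.58 to −0.45) and −0.44 (−0.51 to −0.38). SMG9, a partner of SMG1, was lower too, with −0.42 and −0.56. In contrast, RBM8A, a subunit of the exon junction complex, had 0.11 and 0.42, the first with an interval that included 0.

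Regulators of TOP mRNAs, 9 genes, had medians of −0.10 and 0.11, with 2 of 9 above 0 in both libraries (background 14.0%) and 2 of 9 below (background 20.6%). EIF4EBP1, a translation repressor under mTORC1 control, had 2393 counts in the control, 1500 in sh1 and 1330 in sh2. It was the lowest of the list, with ratios of −0.77 (interval −0.87 to −0.68) and −0.93 (−1.03 to −0.83). TIAL1, an RNA-binding protein of TOP mRNAs, had −0.33 and −0.20, while EIF4EBP2 had 0.18 and 0.25 and RPTOR, the mTORC1 scaffold, 0.30 and 0.15.

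Hosts outside the naming rule were compared last. Of 38 protein-coding hosts, 18 were below 0 in both libraries (background 20.6%) and 4 above 0 in both (background 14.0%), and the medians were −0.09 in sh1 and −0.03 in sh2. Most of these hosts have very high counts, so their intervals exclude 0 at small ratios and the background is not a like comparison. HSPA8, a constitutive heat shock chaperone, had 10577 counts in the control, 30583 in sh1 and 35743 in sh2, with ratios of 1.43 and 1.68, and was the only 1 of the 38 past 2-fold in both (background 1.19%). EEF2, the elongation factor, had 40273, 29781 and 28614 counts and ratios of −0.54 and −0.57. WDR43, a ribosome biogenesis factor, had −0.43 and −0.25.

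Of 6 other noncoding hosts or hosts of mixed annotation, the medians were −0.20 and −0.05, with 1 above 0 in both libraries (background 14.0%) and 1 below (background 20.6%). C6orf48 had −0.33 and −0.20 and LRRC75A-AS1 −0.16 and −0.18. TAF1D, picked with its values known, had 741, 596 and 993 counts in the control, sh1 and sh2, the same order as SNHG3 and SNHG12, with ratios of −0.41 (interval −0.57 to −0.26) and 0.34 (0.20 to 0.48). MEG8, picked the same way, had 3, 16 and 39 counts, and its ratios of 1.78 and 2.98 had intervals of 0.51 to 4.74 and 1.97 to 5.96.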

How the data were processed

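The authors deposited counts per gene without normalization, and FPKM (count divided by gene length and library size), for 1 library per condition. The submitters' processing notes name Bowtie2 2.0.6, TopHat2 2.0.9, Cufflinks 2.1.1 and Cuffdiff 2.1.1 with no role. The read counter and strandedness are not given in the sources used here. All 58735 gene identifiers are in GENCODE 29.

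From the counts, log2 ratios of CPM were computed with edgeR 4.0.16 in R 4.3.3 (TMM scaling, prior count of 2). Intervals are exact 95% conditional binomial (Clopper-Pearson) intervals. They cover counting error only, since the reads carry no molecular identifiers and may repeat molecules. Calls were counted over genes averaging 1 CPM or more, with a 2-fold limit. No test was run. RPKM were computed from the counts, TMM-scaled totals and annotated exon length.

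Overlaps and transcript starts came from the GENCODE 29 annotation and transcripts, and snoRNA names also from RefSeq. Named genes were all hosts averaging 5 CPM or more, DDX24, snoRNAs with at least 10 counts in a library, and from each list the 2 genes most raised and the 2 most lowered in the library with the smaller change, with the same sign in both and an average of 5 CPM or more. Other hosts are given by name and counts, and genes overlapping a host, MEG8 and TAF1D were picked with their values known. The hosts and lists were chosen with earlier results of these data known.

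The deposited FPKM, multiplied by length and divided by count, gave 1 constant within 1% for 100% of 11962 genes in Control-sh, but for 5.23% in DDX24-sh1 and 5.17% in DDX24-sh2. With the shRNA labels exchanged it did so for 100%. Alternatives were DESeq2 1.42.0 size factors, total counts, a prior count of 0.5, other CPM limits, a 1.5-fold limit, log2(FPKM + 0.1), and hosts with no gene opposite. The steps were tested on simulated data. Python 3.11.15, pandas 2.3.3, scipy 1.17.1 and matplotlib 3.10.9 were used.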

Additional observations from a re-analysis of the deposited data

Results flagged for a closer look

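SNHG3 and SNHG12 were singled out because their single shRNA libraries lay on opposite sides of the control. In DDX24-sh1 the log2 ratio of SNHG3 was −0.49, and it was 0.43 in DDX24-sh2. For SNHG12 the values were −0.46 and 0.89. The difference between the shRNA effects was not tested, because each condition has 1 library.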

How the results depend on the processing

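With 1 library per condition leaving out a library gives no value, and the spread between cultures is unknown. No paired analysis was possible because each condition has 1 library. Counting error limits the values of hosts with under about 100 counts most.

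Gene ratios were compared with their counting interval, medians with the medians of the genes' interval bounds, and counts with 1.5 times the main count. Within these bounds stayed DESeq2 size factors (63 results), total counts (63), a prior count of 0.5 (59), the FPKM with the shRNA labels exchanged (59) and a limit of 10 CPM (21). The bounds for medians are wide. With the limit of 10 CPM the host medians were −0.43 in DDX24-sh1, −0.16 in DDX24-sh2 and 0.17 between the shRNA libraries. With no filter on low counts, by which hosts with few counts enter, they were −0.0723, 0.0462 and 0.39. With hosts that have no gene opposite them, those against the control were −0.43 and −0.20. Total counts gave −0.05 in DDX24-sh2, and leaving out SNHG7 −0.0079. A 1.5-fold limit gave 2 hosts lower in both libraries, SNHG7 and SNHG17, and the share of all expressed genes at that limit was not counted. At the 2-fold limit leaving out SNHG7 gave 0, which was fixed in advance because SNHG7 was the only such host. With hosts that have no gene opposite them, 0 were 2-fold lower in both, 1 was above and 5 were below 0 in both, and 5 were above 0 between the shRNA libraries. Leaving out SNHG7 and the alternatives for the comparison between shRNA libraries were chosen after seeing the data.

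With the FPKM labels as given the shRNA libraries change places. The host medians were then −0.0731 in DDX24-sh1, −0.254 in DDX24-sh2 and −0.257 between them. SNHG12 had 0.87 and −0.43 and SNHG3 0.43 and −0.48, and in DDX24-sh2 SNHG26 had −0.0050 and SNHG4 −0.085. The list medians were 0.118 and −0.0870 for the TOP regulators, 0.0639 and −0.0744 for the assembly factors, and −0.0237 and −0.0732 for the protein-coding hosts. For the other hosts, noncoding or of mixed annotation, the median was −0.0413 in DDX24-sh1.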
